A study of Mus musculus with 6 samples.

Results

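The D cyclins, their kinases and the inhibitors of those kinases were followed as 10 named genes, Ccnd1, Ccnd2, Ccnd3, Cdk4, Cdk6, Cdk2, Cdkn1a, Cdkn1b, Cdkn2c and Rb1, out of 55416 genes in the count files. All 10 were matched by symbol to 1 gene identifier each, and all 10 passed the filter on low counts. Cells labelled as oligodendrocyte precursor cells, the dividing progenitors of myelin-forming cells, were isolated from mouse cortex at postnatal day 11. Ift88 cKO samples (3) carried Pdgfra-Cre, 2 floxed copies of Ift88 (fl/fl) and the RosaEYFP reporter. Ift88 control samples (3) carried the same Pdgfra-Cre and RosaEYFP with 1 floxed and 1 wild-type copy (fl/wt), so Cre and 1 floxed copy are shared by both groups. Each sample was a pool from 4 to 6 mice, and p-values below measure the spread of these pools. Cre was driven by the Pdgfra promoter, which is active in some mesenchymal cells as well as in these precursors.

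Mitogens make a resting cell produce D cyclins, which bind Cdk4 or Cdk6; the active pair phosphorylates the retinoblastoma protein and frees E2F factors that switch on the genes of DNA replication. Cdk2, with cyclin E and cyclin A, completes that phosphorylation. Proteins of the INK4 family, such as the product of Cdkn2c, bind Cdk4 and Cdk6 alone, whereas those of the Cip/Kip family, the products of Cdkn1a and Cdkn1b, bind cyclin and kinase complexes, Cdk2 complexes above all. In the oligodendrocyte lineage Cdkn1b is known for its part in leaving the cell cycle at the start of differentiation. Setting cKO against control samples asks what differs between samples of these genotypes. The cilium needs Ift88 for its assembly, but loss of Ift88 or of the cilium is not shown by these counts. The series title names precursor proliferation, Hedgehog and CREB.

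Total counts were 11773548 to 13909236 in 5 libraries and 568509 in cKO replicate 2, and 14047 to 16252 genes had a count in the 5 deeper libraries against 3651 in cKO replicate 2. By counting error alone, a count of 0 allowed up to 0.216 to 0.255 CPM (counts scaled to the library's total) in the deeper ones, and in cKO replicate 2 up to 5.28 CPM. That last value is not taken as a limit, and the others cover counting error only. Of 7039 genes with at least 20 CPM on average in cKO replicates 1 and 3, 61.9% had 0 counts in cKO replicate 2. Ift88 itself had 1, 0 and 305 counts in cKO replicates 1 to 3 and 143, 32 and 167 in control replicates 1 to 3; a 3' tag can lie outside the deleted exons, so this is no check of the genotypes, and cKO replicate 3 held the highest count of the 6. Of 12 precursor markers, Sox10, Pcdh15, Tnr, Gpr17 and Bcas1 had 0 counts in all 6 libraries, and the 12 summed to 7.04 to 194 CPM in cKO libraries and 205 to 465 CPM in control libraries. Reads that touch exons of more than 1 gene were left out of the counts. Exon overlap of the markers was not computed, so their 0 counts are not read as absence of the transcripts. Neuron markers (10) summed to 2165 to 6784 CPM in cKO and 1725 to 5994 CPM in control libraries. Choroid plexus and ependymal markers (6) summed to 376 to 46288 CPM in cKO and 10.8 to 69.1 CPM in control libraries. The highest value was that of cKO replicate 2, and Ttr, the transthyretin gene of choroid plexus, had 26120 counts there. Ttr alone had 376, 45945 and 574 CPM in cKO replicates 1 to 3 and 25.1, 7.37 and 0.147 CPM in control replicates 1 to 3. The cKO sums were thus mostly Ttr, and in cKO replicate 1 Ttr was the whole sum. The part of these other cells in the values below was not tested, and in bulk samples fewer cells of a type and less RNA per cell cannot be told apart.

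Of the 10 genes, 8 share exon bases with an annotated gene on the opposite strand, which bears on what a 3' tag count can hold. Since counting ignored strand and left out reads that touch exons of more than 1 gene, a tag in a shared stretch adds to neither gene. Ccnd1 (GRCm39 chromosome 7, 144483668 to 144493662, minus strand) shares 1100 of its 4709 exon bases, or 23.4%, with LTO1, and these include all of its last 500 exon bases. LTO1 had 0 counts in all 6 libraries. The Ccnd1 counts below therefore came from the other 3609 exon bases.

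Cdk4 (chromosome 10, 126899403 to 126903789, plus strand) shares 641 of 3249 exon bases with Tspan31, a tetraspanin gene, again with 100% of the last 500. Tspan31 had 1, 0 and 115 counts in cKO and 808, 277 and 226 counts in control replicates 1 to 3. Ccnd3 (chromosome 17, 47815976 to 47910616, plus strand) shares 72.2% of its last 500 exon bases with Bysl, and Rb1 (chromosome 14, 73421113 to 73563262, minus strand) shares 76.6% of them with Rcbtb2. Further from the 3' end, Rb1 also overlaps Lpar6, Cdk2 overlaps Pmel, Ccnd2 overlaps Gm43126 and 9330179D12Rik, Cdk6 overlaps Gm17590 and Cdkn1a overlaps AC167363.2, with 0% of the last 500 bases in each case. Cdkn1b (chromosome 6, 134897364 to 134902476) and Cdkn2c (chromosome 4, 109518073 to 109524386) share no exon base with another gene. Levels of different genes are compared below as CPM, which for 3' tags needs no length correction, but those of Ccnd1, Cdk4, Ccnd3 and Rb1 may be too low to an extent that these files do not give.

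**Figure D1:**
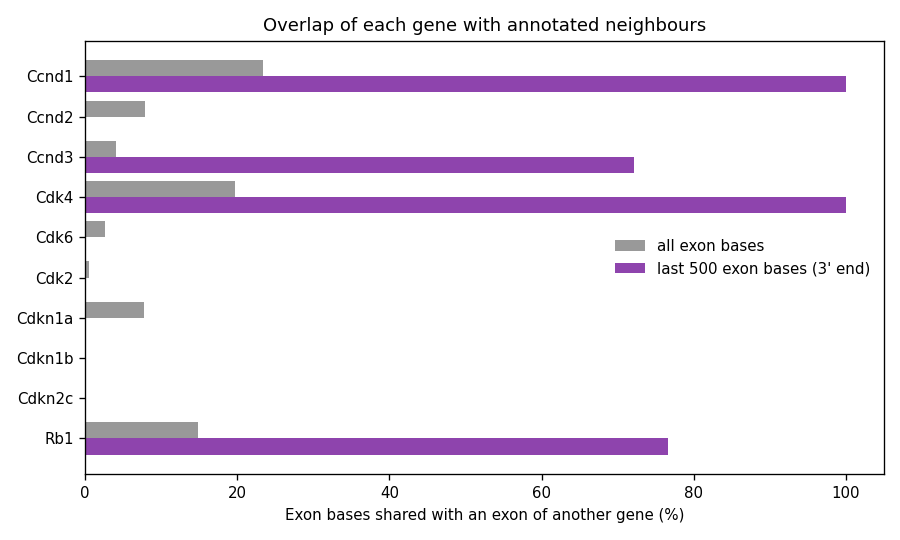
Percent of exon bases shared with an exon of another annotated gene, over all exon bases (grey) and over the last 500 (purple), for each of the 10 genes. Ccnd1 and Cdk4 share 100% of their last 500 bases, Rb1 76.6% and Ccnd3 72.2%, and the other 6 genes 0%.

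None of the 10 genes passed the comparison of cKO with control samples, against a background of 0.0156% of all 12833 genes tested (2 genes at an adjusted p under 0.05, edgeR quasi-likelihood test) and, without cKO replicate 2, of 0.00687% of 14562 genes (1 gene). At an unadjusted p under 0.05 the same test also held 0 of the 10, beside 2.83% of all genes, and the smallest unadjusted p, that of Cdkn1a, was 0.0996. DESeq2 called 0 of the 10 after adjustment, beside 0.973% of 13360 genes, and had 2, Ccnd1 and Cdkn1a, at an unadjusted p under 0.05, beside 7.97% of those genes. With RLE scaling in edgeR the same 2 genes were under that level, beside 5.45% of all genes, and 0 passed after adjustment, beside 0.125%. The CPM of the groups overlapped for all 10 genes, both with all 6 libraries and without cKO replicate 2, where 12.5% and 25.5% of all genes tested did not overlap. A miss of the threshold does not show that the levels were equal: the standard errors of the 10 log2 fold changes ran from 1.45 to 2.62.

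Most of the 10 genes were absent from cKO replicate 2. In that library 7 of the 10 had 0 counts, as did 73.3% of all genes tested, while Ccnd1, Cdk2 and Cdkn1a had 234, 136 and 300 counts. At the mean CPM of cKO replicates 1 and 3, Cdk4 would have had 93.2 counts there, Cdkn1b 86.9, Ccnd3 46.9 and Rb1 41.7, against 0 counted for each. Among 7039 genes with at least 20 CPM on average in cKO replicates 1 and 3, 61.9% had 0 counts in cKO replicate 2. The fold change of each of the 10 genes is therefore given with and without that library.

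**Figure D2:**
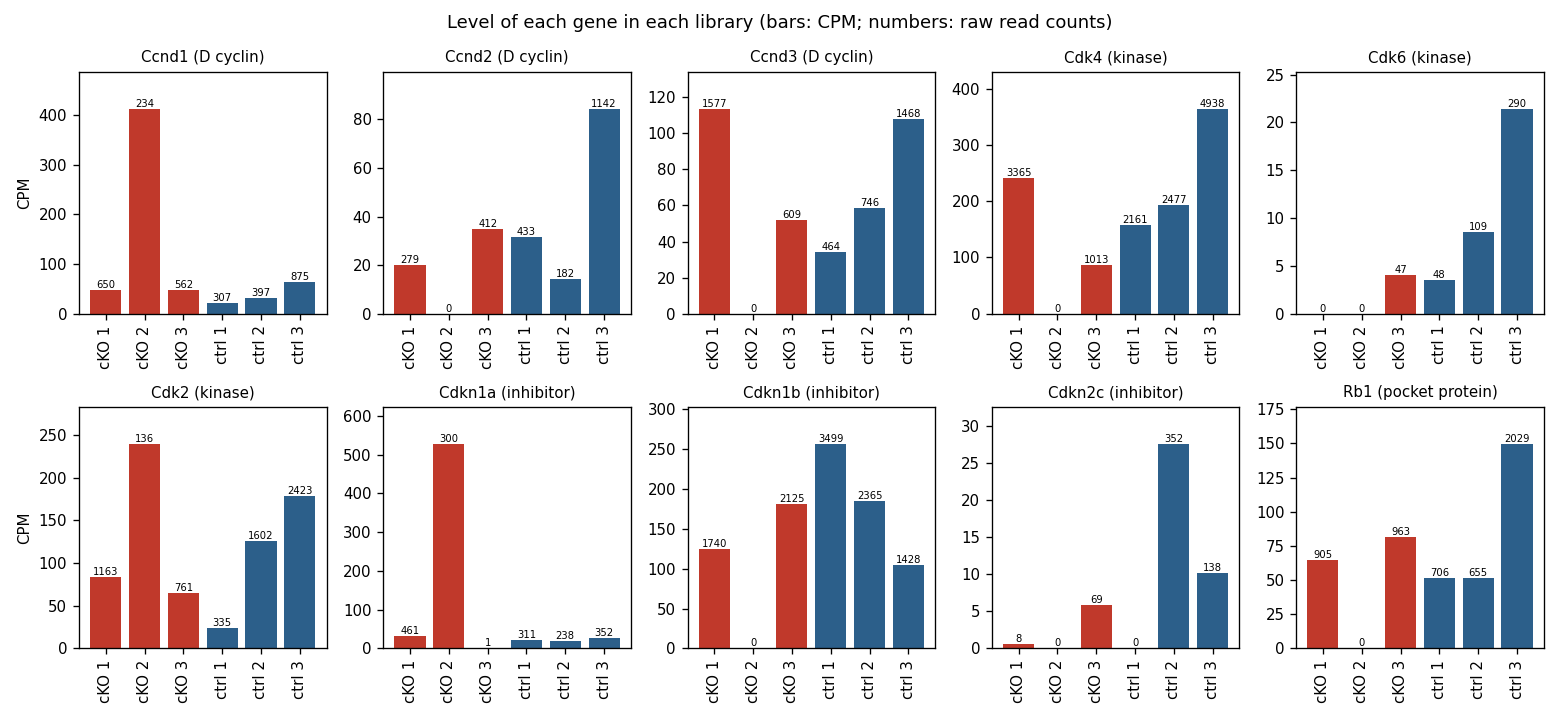
CPM (bars) and raw counts (numbers) of each gene in cKO replicates 1 to 3 (red) and control replicates 1 to 3 (blue), on a separate linear axis per gene. cKO replicate 2 is at 0 for 7 genes and holds the highest bar for Ccnd1, Cdk2 and Cdkn1a; control replicate 3 is the highest control for 8 genes.

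Among the D cyclins, Ccnd1, the cyclin most often used as a readout of mitogen and Hedgehog input, had 650, 234 and 562 counts in cKO replicates 1 to 3 and 307, 397 and 875 counts in control replicates 1 to 3. As a level this was 46.7, 412 and 47.7 CPM in cKO libraries and 22.5, 31.1 and 64.5 CPM in control libraries. The 2 deep cKO libraries were nearly equal and lay inside the control range, and cKO replicate 2 was 6.38 times the highest other library. The log2 fold change was 2.05 (SE 1.75, edgeR quasi-likelihood, Benjamini-Hochberg adjusted p = 1) and 0.30 (SE 0.58) without cKO replicate 2, where the mean of 47.2 CPM in the 2 remaining cKO libraries stood against 39.4 ± 22.2 CPM in controls (SD, n = 3).

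Ccnd2, the D cyclin found most widely in neural progenitors, had 279, 0 and 412 counts in cKO and 433, 182 and 1142 counts in control libraries. Its level was 18.4 ± 17.6 CPM in cKO and 43.4 ± 36.4 CPM in control samples (SD, n = 3 each), and 27.5 CPM in cKO without replicate 2. Control replicate 3 was the highest of the 6 and control replicate 2 the lowest of the deep ones, a 5.90-fold spread within 1 group. Ccnd2 had a log2 fold change of -1.19 (SE 1.72, edgeR) in all libraries and -0.62 (SE 0.81) without cKO replicate 2.

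Ccnd3, which partners mainly Cdk6 in blood cells and is present in many others, had 1577, 0 and 609 counts in cKO and 464, 746 and 1468 counts in control libraries. The level was 113, 0 and 51.7 CPM in cKO libraries and 34.0, 58.5 and 108 CPM in control libraries. cKO replicate 1 was the highest of the 6, and cKO replicate 3 lay between the lower 2 controls. For Ccnd3 the fitted log2 difference of -0.24 (SE 1.75, edgeR) became 0.35 (SE 0.59) without cKO replicate 2. Reads that map to more than 1 place were left out of the counts. Those that fit both Ccnd3 and its processed copy Ccnd3-ps are thus in neither count. The copy had 133, 97 and 255 counts in cKO and 109, 238 and 770 counts in control libraries. How alike the gene and the copy are was not measured, so Ccnd3 counts are uncertain. In cKO replicate 2 the copy was counted where the gene was at 0.

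Shares within a library do not depend on its scaling. The 95% intervals given with them cover counting error only, and the shares of Ccnd3 differed by more than that within each group. Ccnd3 made up 62.9% of the 2506 D cyclin counts of cKO replicate 1 (95% interval 61.0 to 64.8%) and 38.5% of 1583 in cKO replicate 3 (36.1 to 40.9%). In control replicates 1 to 3 it made up 38.5% of 1204 (35.8 to 41.4%), 56.3% of 1325 (53.6 to 59.0%) and 42.1% of 3485 (40.5 to 43.8%). Ccnd3 was thus the most counted D cyclin in all 5 deep libraries, although in cKO replicate 3 its interval met that of Ccnd1 (35.5%, 33.1 to 37.9%) and in control replicate 1 that of Ccnd2 (36.0%, 33.2 to 38.7%). The share of Ccnd1 was the steadiest in the controls, at 25.5%, 30.0% and 25.1%, beside 25.9% and 35.5% in cKO replicates 1 and 3. The share of Ccnd2 was 11.1% and 26.0% in those cKO libraries and lay between 13.7% and 36.0% in the controls.

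In cKO replicate 2 all 234 D cyclin counts were Ccnd1. By the same interval the 0 counts of Ccnd2 and Ccnd3 would allow at most 1.56% each, but it covers counting error only. In that library 61.9% of genes with at least 20 CPM on average in cKO replicates 1 and 3 had 0 counts. The interval is therefore not taken as a limit there. With that library the share of Ccnd3 averaged 33.8% ± 31.7 in cKO and 45.7% ± 9.39 in control samples (SD, n = 3 each); without it the cKO mean was 50.7%.

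**Figure D3:**
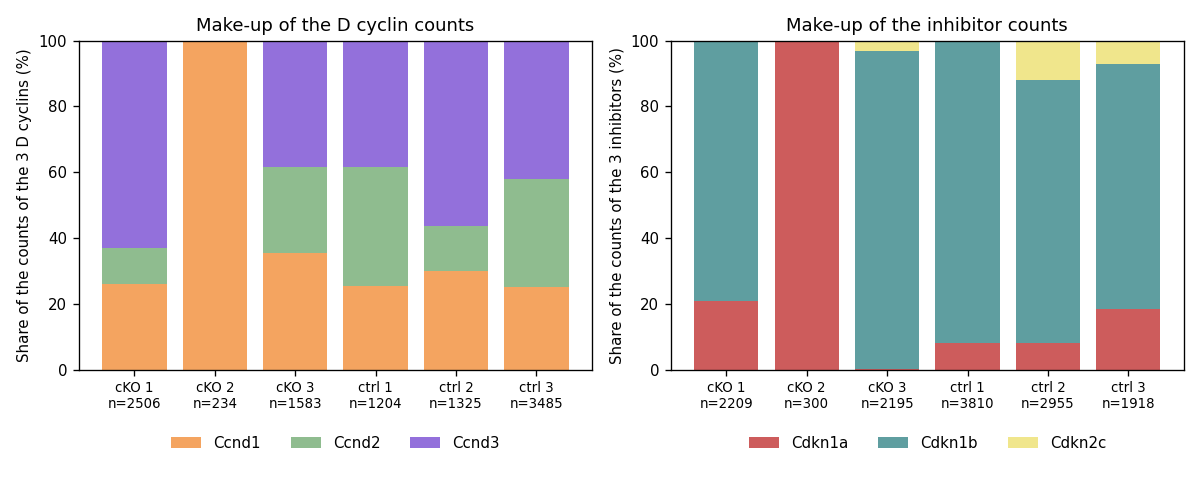
Share of each gene in the summed counts of the 3 D cyclins (left) and of the 3 inhibitors (right) in each library, with the summed count as n under each bar. Ccnd3 is the largest D cyclin share and Cdkn1b the largest inhibitor share in the 5 deep libraries, while cKO replicate 2 holds only Ccnd1 and only Cdkn1a.

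Of the kinases, Cdk4 was the most counted of the 10 genes, at 209 CPM on average over the 5 deep libraries, and Cdk6 the least, at 7.49 CPM. Cdk4 had 3365, 0 and 1013 counts in cKO and 2161, 2477 and 4938 counts in control libraries, or 109 ± 123 CPM in cKO and 239 ± 110 CPM in control samples (SD, n = 3 each). cKO replicate 1, at 242 CPM, lay within the control range of 158 to 364 CPM, and cKO replicate 3, at 86.0 CPM, lay below it. Cdk4 had a log2 fold change of -1.09 (SE 1.45, edgeR quasi-likelihood, Benjamini-Hochberg adjusted p = 1) and -0.49 (SE 0.53) without cKO replicate 2.

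Cdk6, which can replace Cdk4 in many cells, had 0, 0 and 47 counts in cKO and 48, 109 and 290 counts in control libraries. The level was 0, 0 and 3.99 CPM in cKO libraries and 3.52, 8.54 and 21.4 CPM in control libraries. Only cKO replicate 3 overlapped the controls, just above control replicate 1. At the mean of the 2 deep cKO libraries cKO replicate 2 would hold 1.13 counts, so its 0 was within the limit of depth. cKO replicate 1 was deep, and by counting error alone its 0 allowed up to 0.216 CPM. That value is not taken as a limit on the level. Deep libraries of the same group could differ by far more than counting error. Cdkn1a, for example, had 461 counts in cKO replicate 1 and 1 in cKO replicate 3. Cdk6 had a log2 fold change of -2.93 (SE 2.62, edgeR), or -2.47 (SE 2.59) without cKO replicate 2. Cdk6 made up 4.43% of the summed Cdk4 and Cdk6 counts in cKO replicate 3 (95% interval 3.28 to 5.85%), against 2.17%, 4.22% and 5.55% in control replicates 1 to 3. In cKO replicate 1 it made up 0%, with an interval up to 0.110% that covers counting error only.

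Cdk2, the partner of cyclins E and A, had 1163, 136 and 761 counts in cKO and 335, 1602 and 2423 counts in control libraries. Its level was 83.6, 239 and 64.6 CPM in cKO libraries and 24.5, 126 and 179 CPM in control libraries, a 7.28-fold spread among the controls. cKO replicate 2 was the highest of the 6, and the 2 deep cKO libraries lay between control replicates 1 and 2. For Cdk2 the fitted log2 difference of 0.20 (SE 1.62, edgeR) became -0.52 (SE 0.72) without cKO replicate 2.

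The promoters of Cdk4 and Cdk6 are shown because the 2 partner kinases of the D cyclins stood at opposite ends of the range of levels. Windows of 250 bases before to 50 bases after the RefSeq gene start on GRCm38.p6 were found for 7 of the 10 genes, some of which have more than 1 annotated start (10 windows). Capitals mark matches on either strand to an E-box (CACGTG, bound by Myc and related factors), the core of a cAMP response element (TGACG, recognised by CREB, or CGTCA on the other strand), an E2F-like site (TTTNNCGC) or a TATA box (TATAAA).
Cdk4, chr10:127063285-127063584, plus strand: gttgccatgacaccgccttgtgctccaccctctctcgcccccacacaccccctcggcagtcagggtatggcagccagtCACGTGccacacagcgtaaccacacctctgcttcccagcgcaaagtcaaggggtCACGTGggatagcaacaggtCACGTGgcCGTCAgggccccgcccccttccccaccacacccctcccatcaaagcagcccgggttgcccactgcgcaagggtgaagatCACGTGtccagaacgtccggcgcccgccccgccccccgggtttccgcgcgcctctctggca
Cdk6, chr5:3343643-3343942, plus strand: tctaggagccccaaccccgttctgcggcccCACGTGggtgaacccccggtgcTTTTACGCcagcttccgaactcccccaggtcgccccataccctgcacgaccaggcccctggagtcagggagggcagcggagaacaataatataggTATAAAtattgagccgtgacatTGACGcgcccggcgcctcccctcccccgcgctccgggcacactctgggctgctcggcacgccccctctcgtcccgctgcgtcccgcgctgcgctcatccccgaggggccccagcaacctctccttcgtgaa

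The Cdk4 window held 4 E-boxes and 1 CREB core. The Cdk6 window held 1 match of each of the 4 motifs, and its TATA box match began at -103 from the annotated gene start. A GC box (GGGCGG) was also sought and is not capitalised. It had 3 matches in the Cdk4 window and 0 in the Cdk6 window, and was present in 35.7% of all windows. An E-box was present in 7.15% of all 32851 promoter windows of this length, the CREB core in 20.8%, the E2F-like site in 5.17% and the TATA box in 13.6%. The full cAMP response element (TGACGTCA), present in 1.79% of windows, was in none of those 10 windows. A match is a stretch of letters and does not show that a factor binds, and these counts of transcripts do not bear on binding.

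Among the inhibitors, Cdkn1b had 1740, 0 and 2125 counts in cKO and 3499, 2365 and 1428 counts in control libraries. The level was 125, 0 and 180 CPM in cKO libraries and 256, 185 and 105 CPM in control libraries. Both deep cKO libraries lay within the control range, with means of 153 CPM in them and 182 ± 75.6 CPM in controls (SD, n = 3). The log2 fold change of Cdkn1b was -0.85 (SE 1.54, edgeR) and -0.27 (SE 0.45) without cKO replicate 2, the smallest standard error of the 10 genes in that fit.

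Cdkn1a, the inhibitor induced through p53 and by stress, had 461, 300 and 1 counts in cKO and 311, 238 and 352 counts in control libraries. Its level was 33.1, 528 and 0.0849 CPM in cKO libraries and 22.8, 18.7 and 25.9 CPM in control libraries. The controls differed by no more than 1.39-fold, the least of the 9 genes for which that ratio could be formed, whereas the 2 deep cKO libraries stood on either side of them. The 528 CPM of cKO replicate 2 was 15.9 times the highest other library. The log2 fold change was 2.98 (SE 1.81, edgeR quasi-likelihood, Benjamini-Hochberg adjusted p = 1), and -0.38 (SE 1.63) without that library.

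Cdkn2c, the INK4 inhibitor of Cdk4 and Cdk6, had 8, 0 and 69 counts in cKO and 0, 352 and 138 counts in control libraries. Each group thus held a library at 0, and in the controls that was a deep one. The level was 2.15 ± 3.23 CPM in cKO and 12.6 ± 13.95 CPM in control samples (SD, n = 3 each), with a log2 fold change of -2.49 (SE 2.43, edgeR) and of -1.99 (SE 2.62) without cKO replicate 2.

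Cdkn1b was the most counted inhibitor in the 5 deep libraries. It made up 78.8% of the 2209 inhibitor counts in cKO replicate 1 and 96.8% of 2195 in cKO replicate 3, against 91.8% of 3810, 80.0% of 2955 and 74.5% of 1918 in control replicates 1 to 3. In cKO replicate 2 all 300 inhibitor counts were Cdkn1a. The ratio of Cdkn1b to Cdk4 counts was 0.517 and 2.10 in cKO replicates 1 and 3 and 1.62, 0.955 and 0.289 in control replicates 1 to 3. The highest ratio was that of a cKO library and the lowest that of a control library, with overlapping groups.

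Rb1, which encodes the retinoblastoma protein that the kinases phosphorylate, had 905, 0 and 963 counts in cKO and 706, 655 and 2029 counts in control libraries. The level was 65.1, 0 and 81.8 CPM in cKO libraries and 51.7, 51.3 and 150 CPM in control libraries. Both deep cKO libraries lay between the lower 2 controls and control replicate 3. Rb1 had a log2 fold change of -0.75 (SE 1.76, edgeR) and -0.16 (SE 0.55) without cKO replicate 2.

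**Figure D4:**
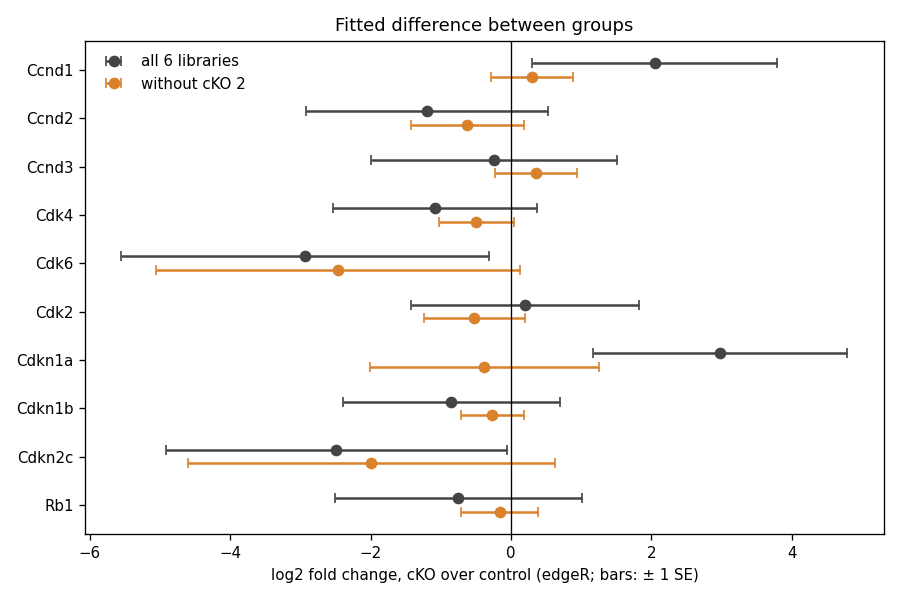
Fitted log2 fold change of each gene, cKO over control, with all 6 libraries (grey) and without cKO replicate 2 (orange); points are edgeR estimates and bars ± 1 SE. Leaving out that library moves Ccnd1 from 2.05 to 0.30 and Cdkn1a from 2.98 to -0.38, and shortens the bars of 7 genes to 0.81 or less.

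Of the 10 fitted log2 fold changes, 7 were below 0 with all 6 libraries, as were 66.3% of all genes tested, and 8 were below 0 without cKO replicate 2, against 52.1%. Their median was -0.80, beside -0.44 over all genes, and -0.43 without cKO replicate 2, beside -0.06. The values with all 6 libraries thus include a shift common to most genes.

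The controls differed among themselves. Control replicate 3 was the highest control for 8 of the 10 genes, all but Cdkn1b, which was lowest there, and Cdkn2c. The share of all genes tested that were highest in that control was not computed, so this is not read as particular to the 10 genes. The 10 genes summed to 605, 715 and 1112 CPM in control replicates 1 to 3 and to 730, 1179 and 557 CPM in cKO replicates 1 to 3. Control replicate 3 also had the lowest sum of the 12 precursor markers among the controls, 205 CPM against 315 and 465 CPM, and the highest sum of 6 mature oligodendrocyte markers, 143 CPM against 90.5 and 53.7 CPM. Its neuron marker sum was the lowest of the controls, 1725 CPM against 5994 and 4899 CPM, and it had the highest sum of 7 mural and fibroblast markers, 3336 CPM against 843 and 2510 CPM. The part of these cells in the difference was not tested.

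In order of their mean over the 5 deep libraries the genes were Cdk4 (209 CPM), Cdkn1b (171 CPM), Cdk2 (95.4 CPM), Rb1 (79.9 CPM), Ccnd3 (73.2 CPM), Ccnd1 (42.5 CPM), Ccnd2 (37.0 CPM), Cdkn1a (20.1 CPM), Cdkn2c (8.84 CPM) and Cdk6 (7.49 CPM). The order within a library differed: Cdkn1b led in cKO replicate 3 and control replicate 1, and Cdk4 in the other 3 deep libraries. Neighbours in that order had overlapping values across the libraries, so their order is uncertain, whereas Cdk4 lay above Cdk6 in all 5 deep libraries. The 3 genes closest in profile to Cdk4, by the root mean square distance of centred log2(CPM + 1) over the 6 libraries, were Sept11 (0.24), Gpaa1 (0.38) and Yif1a (0.40), where the median of 12832 genes was 1.98. All 3 were at 0 in cKO replicate 2, as was Cdk4. The distance includes that library and so favours genes at 0 there, as were 73.3% of all genes tested. Of the other members Ccnd3 was nearest to Cdk4, at 0.73.

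Beyond the 10 genes, 72 of 73 other genes of the cell-cycle machinery were found in the files and 63 were tested, with 0 higher and 0 lower in cKO samples in the edgeR fit. At an unadjusted p under 0.05 the count was 0 of 63 with all libraries and 5 of 65 without cKO replicate 2, where 6.09% of all genes tested were under that level; DESeq2 had 0 of 63 after adjustment and 6 before it, where 7.97% of all its genes were under that level. The median log2 fold change of the 63 was -1.002, beside -0.44 over all genes, and without cKO replicate 2 it was -0.48 beside -0.06. In cKO replicate 2, 55 of the 72 had 0 counts.

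Other cyclins had 15 of 17 genes tested. Ccng1, a cyclin gene induced through p53, had 1206, 0 and 1583 counts in cKO and 2410, 2593 and 7309 counts in control libraries. All cKO libraries lay below all controls, at a log2 fold change of -2.03 (SE 1.45, edgeR quasi-likelihood, Benjamini-Hochberg adjusted p = 1), and of -1.44 (SE 0.52, adjusted p = 0.767) without cKO replicate 2. Ccna2, the cyclin of S phase and G2, had 355, 338 and 365 counts in cKO and 101, 728 and 1245 counts in control libraries. Ccnc, the cyclin of the Mediator kinase module, had 1510, 414 and 785 counts in cKO and 976, 1038 and 1280 counts in control libraries. For both, the groups overlapped, and cKO replicate 2 gave the highest CPM.

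Other cyclin-dependent kinases had 13 of 13 genes tested. Cdk1, the mitotic kinase, had 0, 0 and 136 counts in cKO and 1, 604 and 255 counts in control libraries, so that each group held a deep library at or near 0. Cdk7, part of the kinase that activates other CDKs, had 246, 527 and 271 counts in cKO and 573, 305 and 630 counts in control libraries. Its unadjusted p of 0.0521 was the smallest of the 63, with a log2 fold change of 3.03 (SE 1.56, edgeR) that was -0.86 (SE 0.64) without cKO replicate 2. Cdk5, the kinase of postmitotic neurons, had 3033, 661 and 1377 counts in cKO and 2389, 2428 and 1555 counts in control libraries.

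Other inhibitors and brakes had 13 of 14 genes tested. Gadd45a, a stress-induced brake, had 482, 11 and 319 counts in cKO and 1592, 1447 and 525 counts in control libraries, and Cdkn3, a phosphatase of cyclin-dependent kinases, had 349, 0 and 276 counts in cKO and 412, 881 and 1320 counts in control libraries. Both had every cKO level below every control level, as had 7 of the 63 genes and 11.1% of all genes tested; 1 of the 63 and 1.33% of all genes had every cKO level above. Cdkn2a, the INK4 and ARF locus, had 0, 0 and 9 counts in cKO and 0, 161 and 148 counts in control libraries.

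Pocket proteins and E2F factors had 9 of 12 genes tested, of which 8 had a fitted log2 fold change below 0, with a median of -1.34, and -0.87 over 10 genes without cKO replicate 2. Rbl2, a relative of Rb1, had 5, 1 and 314 counts in cKO and 352, 549 and 427 counts in control libraries. E2f1, an activator of replication genes, had 0, 0 and 73 counts in cKO and 88, 102 and 212 counts in control libraries, and its nearest values were 6.20 CPM in cKO replicate 3 and 6.45 CPM in control replicate 1. E2f3, a second activator, had 249, 0 and 108 counts in cKO and 153, 458 and 330 counts in control libraries. The lowest points in the plot of these groups, Ccna1 and E2f2 without cKO replicate 2, had 0 counts in both remaining cKO libraries, so their fitted value depends on the prior count and is no bound. None of these passed, and the lists were not tested as lists.

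Genes for turnover and activation of the members had 13 of 17 tested. Cks1b, a cofactor in the degradation of the Cdkn1b protein, had 0, 0 and 90 counts in cKO and 78, 501 and 307 counts in control libraries. Mdm2, the ligase of p53, had 0, 0 and 131 counts in cKO and 172, 127 and 653 counts in control libraries. Ambra1, an adaptor in the degradation of D cyclins, had 1385, 348 and 1173 counts in cKO and 1452, 556 and 730 counts in control libraries. In cKO replicate 1, a deep library, Cks1b, Mdm2, E2f1, Cdk1, Cdkn2a and Cdk6 were all at 0 counts. All of these but Cdk6 were named for a small unadjusted p in the edgeR test. That library had a count for 14047 genes, the fewest of the deeper ones. The share of all genes at 0 in it was not computed, so these 0 counts are not read as particular to cell-cycle genes.

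**Figure D5:**
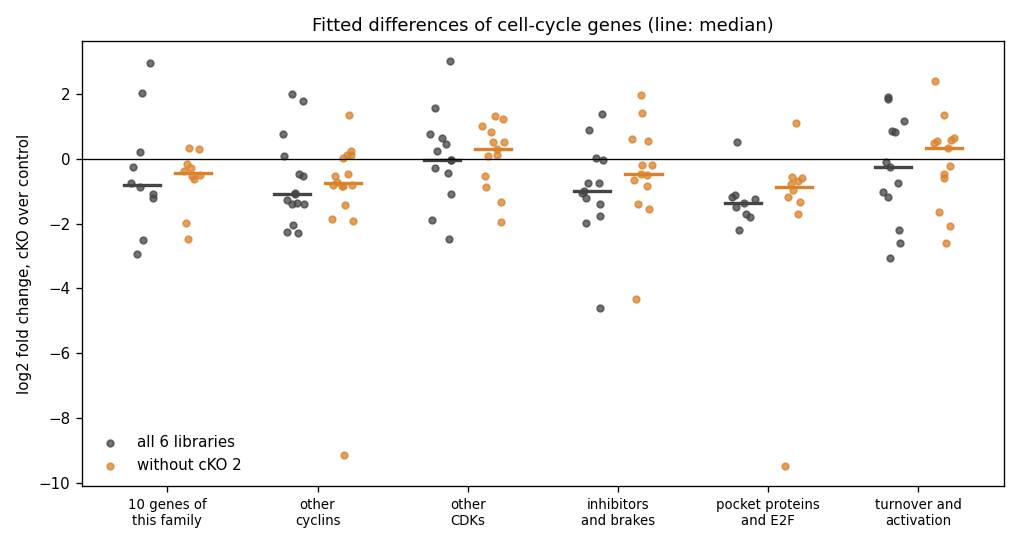
Fitted log2 fold changes, cKO over control, of the 10 genes and of 5 groups of other cell-cycle genes, with all 6 libraries (grey) and without cKO replicate 2 (orange); each point is a gene and each line a median. The median of the pocket protein and E2F group is -1.34 and -0.87, that of the 10 genes -0.80 and -0.43, and no gene passed the threshold in either fit.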

How the data were processed

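The authors deposited 1 file of raw counts per sample, made with featureCounts 2.0.0 on the exons of the Ensembl release 104 annotation of GRCm39, per the file headers. The counting command names no strand option and no option for multi-mapping reads or for reads that touch more than 1 gene, per the file headers. By its defaults featureCounts then counts both strands together and leaves out reads of the other 2 kinds. Libraries came from a QuantSeq forward 3' kit, per the labels' protocols, so a count is a tag count that does not grow with transcript length. STAR, FastQC and DESeq2 are named without roles, per the submitters' processing notes; no version of STAR is given there.

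CPM here are counts scaled to a library's total. The filterByExpr function kept 12833 of 55416 genes, which were TMM-scaled and compared, cKO over control with no covariate, by the two-sided quasi-likelihood test of edgeR 4.0.16 under R 4.3.3 (robust fit), with Benjamini-Hochberg adjustment over all genes tested and a threshold of 0.05. Standard errors were taken as the absolute log2 fold change over the root of F. Symbols were looked up by gene identifier, with a match for 52083 of 55416; exon overlap came from the files' own coordinates. Intervals of shares are exact binomial (Clopper-Pearson, 95%) and the limit for a count of 0 is 3 counts; both cover counting error only. Promoter windows are RefSeq's on GRCm38.p6. The test was run on simulated counts, which did not model the many 0 counts of cKO replicate 2. That run is therefore no support for the test on these data. Alternatives were RLE scaling, DESeq2 1.42.0, a stricter filter (5 CPM in 3 samples) or none, a replicate block, and leaving out each library.

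The members, the wider cell-cycle list and the marker lists were chosen with earlier results of these data known. Named were the 10 members, every gene whose exons overlap them, the 3 genes of each wider group with the smallest unadjusted p, Ift88 and Ttr as checks, and the 3 genes closest in profile to the member with the highest mean CPM. Skp1 of the wider list had no match by symbol. Figures were drawn with matplotlib 3.10.9.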

Additional observations from a re-analysis of the deposited data

How the results depend on the processing

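Of 109 log2 fold changes of the 10 genes under 11 alternatives, 5 turned their direction and 0 passed the threshold; the lowest adjusted p was 0.282, for Cdkn1a by DESeq2. The direction turned for Ccnd3 (0.35 without cKO replicate 2, 0.25 without control replicate 3), Cdk2 (-0.52 without cKO replicate 2, -0.29 without control replicate 1) and Cdkn1a (-0.38 without cKO replicate 2); the cause was not tested. Leaving out 1 library at a time gave ranges of -1.36 to 0.35 for Ccnd3, -0.52 to 0.67 for Cdk2, -0.38 to 3.52 for Cdkn1a, 0.30 to 2.51 for Ccnd1, -1.97 to -0.34 for Ccnd2, -2.47 to -0.49 for Cdk4, -1.49 to -0.27 for Cdkn1b, -4.88 to -1.15 for Cdkn2c and -1.27 to -0.09 for Rb1. The extremes came without cKO replicate 1 (Cdk4 -2.47, Ccnd3 -1.36), cKO replicate 2, cKO replicate 3 (Cdkn2c -4.88, Ccnd2 -1.97, Cdkn1b -1.49, Rb1 -1.27, Cdkn1a 3.52), control replicate 2 (Cdkn2c -1.15) or control replicate 3 (Ccnd1 2.51, Ccnd2 -0.34, Rb1 -0.09, Cdk2 0.67). Cdk6 ran from -9.89 (without cKO replicate 3, which held its 47 cKO counts, so that the fitted value is no bound) to -2.14 and was not tested under the filter of 5 CPM in 3 samples. Over all genes 2 passed, against 16 with RLE scaling, 130 by DESeq2, 23 with no filter and 1 to 7 when 1 library was left out; RLE scaling moved the median log2 fold change of all genes from -0.44 to -0.28. With the replicate number as a block, 1 gene passed; same-numbered libraries deviated together with correlations of 0.08, 0.05 and -0.01, so the numbers were not taken as pairs. The members and the other cell-cycle genes stayed at 0 calls in each of these alternatives. At the depth of cKO replicate 2, Cdk6 and Cdkn2c could not be followed: at the mean of the other cKO libraries they would have had 1.13 and 1.83 counts. For Cdk4, Cdkn1b, Ccnd3, Rb1 and Ccnd2 that mean gave 93.2, 86.9, 46.9, 41.7 and 15.6 counts, yet each was at 0 there. Their levels could not be followed in that library either.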

Other observations

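Without cKO replicate 2, Cdk16, a kinase gene of the PCTAIRE family chosen here after its values were seen, had 9931 and 8144 counts in cKO replicates 1 and 3 and 2386, 5139 and 4399 counts in the controls, with 1 count in cKO replicate 2. Its log2 fold change was 1.24 (SE 0.36, edgeR quasi-likelihood, unadjusted p = 0.00959, Benjamini-Hochberg adjusted p = 0.767), the smallest unadjusted p of the 65 other cell-cycle genes in that comparison. With all 6 libraries the groups overlapped and the log2 fold change of Cdk16 was 0.65 (SE 1.02, edgeR quasi-likelihood, unadjusted p = 0.526). Cdk17, of the same family, had 2365 and 1763 counts in those cKO libraries and 1145, 1109 and 1376 counts in the controls, and Cdk9, the kinase of transcription elongation, had 244 and 279 counts in cKO and 687, 486 and 912 counts in the controls. The log2 fold change of Cdk17 was 0.84 (SE 0.32, edgeR) without cKO replicate 2 and 0.24 (SE 1.68) with all 6 libraries, and that of Cdk9 was -1.31 (SE 0.56) and -1.87 (SE 1.76). Neither passed after adjustment without cKO replicate 2 (edgeR quasi-likelihood, Benjamini-Hochberg adjusted p = 0.767 for each).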
